A study of Mus musculus with 12 samples.

Results

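The genes described here are 31 genes of cholesterol and lipid synthesis and of sterol transport, chosen by name from textbook pathways and looked up in the deposited count table. For each, the row of 1 locus that holds its symbol was taken, and the row with the highest mean count where several did. All 31 were found among 20114 rows of 1 locus, in a table of 36635 rows. They divide into 7 genes of the mevalonate arm, 9 of the sterol arm, 5 of the SREBP control system, 4 of fatty acid synthesis, 3 of intracellular sterol transport and 3 of sterol efflux.

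RNA came from primary mammary epithelial cells (MEC) of female mice aged 9 weeks on a mixed 129X1/SvJ, C57BL/6 and Swiss Webster background, purified by fluorescence-activated sorting. There were 3 groups of 4 libraries. Recombined cells (mT-mG/SmoM2;MMTV-Cre, SmoM2 positive, green) had undergone Cre recombination, which turns on SmoM2, an activated form of the Hedgehog signal transducer Smoothened, and switches the mT-mG membrane reporter from red to green. Unrecombined cells (mT-mG/SmoM2;MMTV-Cre, SmoM2 negative, red) came from the same genotype without the switch. Wild type control cells (mT-mG/SmoM2;+, red) carried both alleles but no Cre. All 3 groups therefore share the mT-mG and SmoM2 alleles. The MMTV promoter drives Cre in only some mammary cells, so green cells are a selected part of the epithelium, and no green cells without SmoM2 were measured. SmoM2, Cre activity and the kind of cell that recombines cannot be told apart. Nothing in the labels names the animal behind a library, so p values measure the spread between these libraries.

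Cells make cholesterol from acetyl-CoA in the mevalonate pathway, which ends in farnesyl diphosphate, and then through squalene and lanosterol. The membrane-bound transcription factor SREBP-2 turns on these genes when sterols are scarce. Scap escorts it for cleavage, and Insig proteins hold Scap back when sterols are plentiful. SREBP-1 acts chiefly on fatty acid synthesis, while the oxysterol-sensing LXR receptors turn on efflux genes. In the mammary gland these pathways supply membranes and, in lactation, milk fat. Cholesterol and oxysterols are also ligands of Smoothened.

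Total counts over rows of 1 locus lay between 19569509 and 34744267 per library. The level of a gene is its CPM, the count divided by the TMM-scaled size of the library (TMM is the trimmed mean of M values). Levels are compared between libraries, not between genes, since the counts are not divided by gene length. Ptch1, a Hedgehog target and receptor, had 133 to 809 CPM in recombined, 24.8 to 61.3 in unrecombined and 34.5 to 38.1 in wild type libraries. Smo itself, counted with AK053708, had 49.1 to 74.7 CPM in recombined, 26.8 to 36.8 in unrecombined and 18.7 to 35.2 in wild type libraries, without overlap of recombined with the others. Recombined 3 and 4 stood apart from all other libraries on the first principal component (31.4% of the variance). They also had the fewest loci with counts, 14256 and 14601, against 15289 to 16814 in the other libraries. Recombined 3 had the lowest total count. The summed level of salivary gland transcripts was 20359 CPM in recombined 2, 96309 in unrecombined 2 and 43424 in wild type 2, 1365 and 1440 in recombined 1 and unrecombined 1, and 44.2 to 72.0 CPM in the remaining libraries. The recombined group also had more RNA of basal cells and less of hormone-sensing luminal cells and fibroblasts, as given below beside the genes that moved with them. In bulk libraries, a change in the share of cells of a type and a change in RNA per cell cannot be told apart.

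Of the 31 genes, 30 had enough counts to test. Hmgcs1 did not, because its rows of 1 locus lay on the unplaced contig 13_random of mm9 and held at most 2 counts in any library. In 7 rows the gene was counted together with others. Fdft1 shared its row with the abundant lysosomal protease gene Ctsb, so its value cannot be read as Fdft1. Tm7sf2, Dhcr7, Srebf1, Acaca, Scd1 and Npc1 shared rows with cDNA clones or predicted genes and, for Srebf1, with Rai1. Whether counting used strand is not given in the sources used here.

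Setting recombined against wild type cells asks which lipid genes differ between SmoM2-positive cells and MEC of animals without Cre. Here 1 of the 30 tested genes rose and 0 fell, at an adjusted p under 0.05 in the quasi-likelihood test of edgeR. The background was 6.55% of 14039 loci, with 4.17% higher and 2.38% lower, so the count among the lipid genes was not above the background. The gene that rose was Apoe. The median log2 fold change of the 30 genes was 0.23, with 20 above 0 and 10 below, against a median of -0.02 over all loci tested, of which 48.5% were above 0. It was between 0.12 (without wild type 4) and 0.32 (without wild type 1) with single libraries left out. At an unadjusted p under 0.05 there were 6 genes (Cyp51, Srebf2, Fasn, Npc1, Npc2 and Apoe), beside 20.6% of all loci. In 2 genes, Apoe and Srebf2, every recombined library lay above every wild type library, and in 0 genes below, where the background was 6.33% and 5.91%.

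Unrecombined cells were compared with wild type cells to see whether SmoM2-negative cells of the Cre genotype differ from cells without Cre. No gene of the 30 passed in edgeR, where the background was also 0% of 14039 loci. The median log2 fold change was 0.19, with 21 genes above 0, against -0.00 over all loci, of which 49.7% were above 0. Without unrecombined 4 the median of the 30 genes was -0.03, so its sign rested on that library. In 0 genes did the groups not overlap, where the background was 4.42%. Only Idi1 had an unadjusted p under 0.05, and it did so through a single library described below, while 3.85% of all loci did. With DESeq2 76 loci passed in this comparison, with no call among these 30 genes. DESeq2 gave no p value for Idi1 in recombined over wild type cells. The lack of a DESeq2 call for Idi1 is therefore not taken as a negative result here.

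Between recombined and unrecombined cells of the same genotype, 1 of 30 genes rose, again Apoe, and 0 fell. The fit took these libraries as unpaired, although their replicate numbers pair them, as described below. Here 5.22% of all loci passed, 3.08% higher and 2.14% lower. The median was 0.03 with 15 genes on either side of 0, against -0.01 over all loci, of which 49.4% were above 0. The median of the 30 genes was 0.28 without unrecombined 4 and -0.08 without unrecombined 1. Every recombined library lay above every unrecombined one in 1 gene and below in 0, where the background was 5.57% and 5.71%. This comparison shares its recombined libraries with the first, so the calls of Apoe in the pair are not independent. In 15 of the 30 genes the log2 fold change was within 0.5 of 0 in all 3 comparisons.

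**Figure D1:**
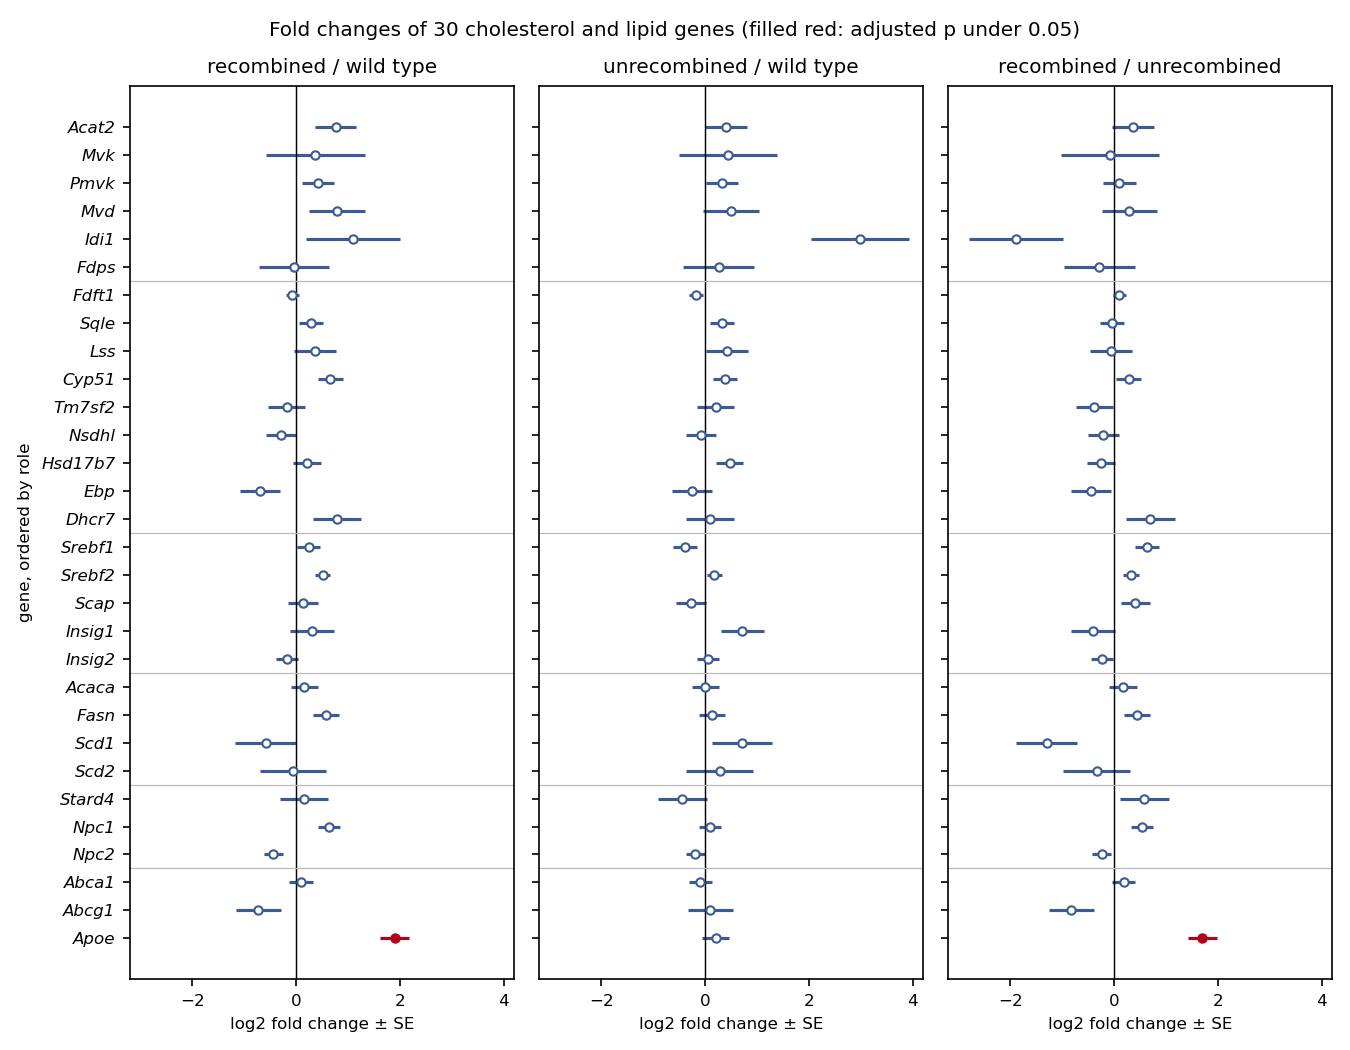
Log2 fold change with its standard error (horizontal axis) of the 30 tested genes, ordered by role (vertical axis), in recombined over wild type (left), unrecombined over wild type (middle) and recombined over unrecombined libraries (right). Filled red points passed at an adjusted p under 0.05. Apoe is the only such gene, at 1.90 and 1.70, and Idi1 has the widest departure in the middle panel, at 2.98 ± 0.948.

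No tested gene of the mevalonate arm passed in any comparison. Acat2, an acetoacetyl-CoA thiolase of the cytosol, ranged from 12.3 to 26.4 CPM in recombined, 7.76 to 26.9 in unrecombined and 7.97 to 14.8 in wild type libraries. Its log2 fold change was 0.76 ± 0.400 (SE) in recombined over wild type cells, with an adjusted p of 0.307 in edgeR. Mvk and Pmvk, the kinases that phosphorylate mevalonate, differed by 0.37 ± 0.953 and 0.42 ± 0.312 in that comparison. Mvk lay between 0.0719 and 2.97 CPM over the 12 libraries, so its fold change carries a wide error at this depth. Mvd, the decarboxylase that makes isopentenyl diphosphate, had 11.4 CPM in recombined 3 and 1.40 to 6.15 CPM in the other libraries. Fdps, which builds farnesyl diphosphate, ranged from 0.215 to 4.00 CPM and differed by -0.04 ± 0.682 in recombined over wild type cells.

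Idi1, the isomerase that converts isopentenyl diphosphate into its reactive isomer, was set by single libraries. It had 2.27, 4.36, 2.32 and 8.08 CPM in recombined libraries 1 to 4, 2.10, 3.17, 2.98 and 54.8 CPM in unrecombined libraries 1 to 4, and 2.62, 1.55, 2.14 and 1.65 CPM in wild type libraries 1 to 4. Unrecombined 4 stood above every other library and recombined 4 was next, while the other 3 unrecombined libraries overlapped wild type. The log2 fold change of unrecombined over wild type cells was 2.98 ± 0.948 (adjusted p = 0.793 in edgeR), and 0.47 without unrecombined 4. Recombined over unrecombined cells gave -1.89 ± 0.905 (adjusted p = 0.293), and 0.63 without unrecombined 4.

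Hmgcs1, the synthase that condenses acetyl-CoA with acetoacetyl-CoA ahead of mevalonate, could be followed only by adding rows in which the table lists it at several loci. Summed over all its rows it had 3.91, 6.41, 4.36 and 9.11 CPM in recombined libraries 1 to 4. It had 3.88, 3.92, 4.53 and 27.3 CPM in unrecombined libraries 1 to 4, and 3.37, 2.09, 2.79 and 2.26 CPM in wild type libraries 1 to 4. All 4 recombined and all 4 unrecombined libraries lay above all 4 wild type libraries, and unrecombined 4 was again the highest. Of all loci tested, 6.33% lay wholly above wild type in recombined and 2.86% in unrecombined cells. What the rows of several loci hold is not stated in the sources used here, so counts of other loci in this sum cannot be told apart. The differences did not pass in edgeR, at 1.18 ± 0.606 in recombined over wild type (adjusted p = 0.296) and 1.91 ± 0.616 in unrecombined over wild type cells (adjusted p = 0.81).

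Acat2, Idi1 and Hmgcs1 were each highest in unrecombined 4 and next in recombined 4. Of these, Idi1 and Hmgcs1, in which unrecombined 4 stood farthest above the other libraries, are shown with the 250 bases before the RefSeq transcription start (build GRCm38.p6). Capitals mark CCAAT, here read on the opposite strand as ATTGG, and the sterol response motif TCACNCCAC, searched on both strands together with the E-box CACGTG, and no marked motifs overlap. Both genes lie on the plus strand of chromosome 13, Idi1 at chr13:8885356-8885605 and Hmgcs1 at chr13:119690101-119690350.
Idi1: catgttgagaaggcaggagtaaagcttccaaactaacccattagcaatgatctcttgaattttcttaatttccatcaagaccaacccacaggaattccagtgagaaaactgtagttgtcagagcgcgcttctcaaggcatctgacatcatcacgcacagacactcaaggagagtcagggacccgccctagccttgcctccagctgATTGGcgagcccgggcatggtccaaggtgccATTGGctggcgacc
Hmgcs1: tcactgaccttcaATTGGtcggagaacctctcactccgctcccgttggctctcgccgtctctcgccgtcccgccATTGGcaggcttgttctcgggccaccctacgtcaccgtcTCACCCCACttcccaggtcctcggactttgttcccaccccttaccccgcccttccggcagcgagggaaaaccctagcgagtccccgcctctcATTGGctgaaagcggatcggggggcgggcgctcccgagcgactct
A CCAAT motif on either strand lay within 250 bases before a start in 18 of the 23 lipid genes that have an entry in the promoter table, and in 37.5% of all 27025 genes there. The E-box was in 5 of the 23 (Hsd17b7, Dhcr7, Scap, Insig1 and Abca1) and in 6.86% of all genes. The sterol response motif was in 1 of the 23, Hmgcs1, and in 1.22% of all genes. These are letters in a window, and no binding was measured.

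In the sterol arm, which leads from farnesyl diphosphate through squalene to cholesterol, no gene passed in any comparison. Cyp51, the demethylase of lanosterol, had 71.1, 85.0, 95.0 and 49.2 CPM in recombined libraries 1 to 4, 44.4, 75.4, 54.3 and 73.7 CPM in unrecombined libraries 1 to 4, and 53.3, 55.9, 34.3 and 46.8 CPM in wild type libraries 1 to 4. Recombined libraries 1 to 3 lay above every wild type library and recombined 4 among them. It differed from wild type by 0.66 ± 0.237 (adjusted p = 0.127), and from unrecombined cells by 0.28 ± 0.236 (adjusted p = 0.599). Sqle, the squalene epoxidase that opens the oxygen-dependent steps, lay between 28.0 and 58.5 CPM in all libraries and differed by 0.29 ± 0.232 in recombined over wild type cells. Lss, which cyclises the epoxide to lanosterol, reached 24.1 CPM in recombined 3 and 28.0 in unrecombined 4, against 8.05 to 15.8 CPM elsewhere. The row of Fdft1, squalene synthase, and Ctsb had 407 to 497 CPM in recombined, 354 to 458 in unrecombined and 410 to 531 in wild type libraries.

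The later sterol enzymes varied in both directions. Ebp, the sterol isomerase, had 2.91 to 11.1 CPM in recombined, 7.86 to 14.3 in unrecombined and 7.68 to 15.1 in wild type libraries, with a log2 fold change of recombined over wild type cells of -0.70 ± 0.389 (adjusted p = 0.334 in edgeR). Dhcr7, which makes cholesterol from 7-dehydrocholesterol, differed by 0.79 ± 0.470 there (adjusted p = 0.377), with 19.3 CPM in recombined 4 and 2.49 CPM in wild type 3 as its extremes. Nsdhl and Hsd17b7, which act together in removing the methyl groups, differed by -0.29 ± 0.297 and 0.21 ± 0.268. Tm7sf2, a sterol reductase, differed by -0.18 ± 0.355, with 4.09 CPM in recombined 3 and 16.4 CPM in unrecombined 3 as its extremes. None of these differences passed, and those of Nsdhl, Hsd17b7 and Tm7sf2 were smaller than their SE, so no direction is read from them.

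**Figure D2:**
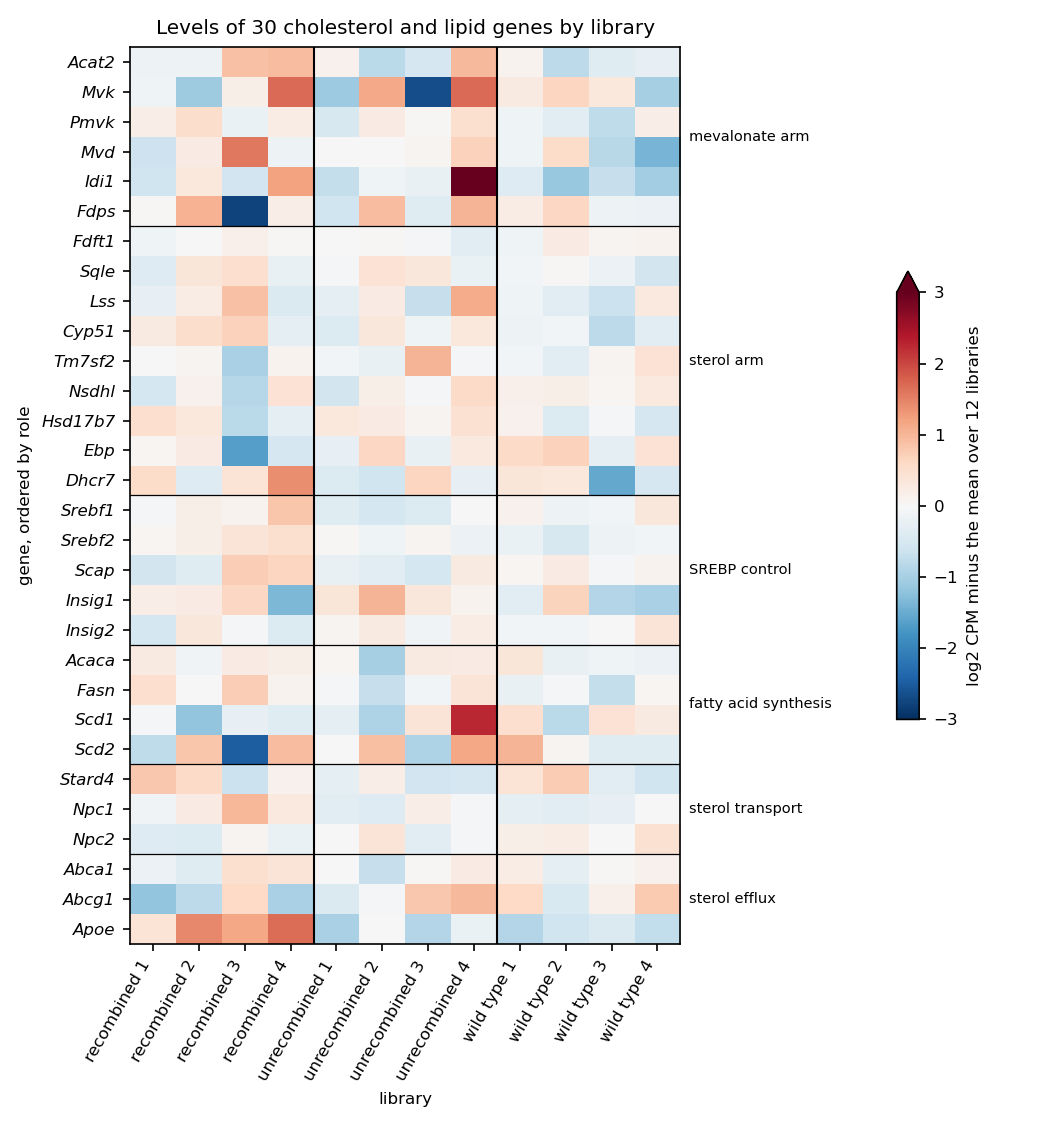
Levels of the 30 tested genes (rows, ordered by role) in the 12 libraries (columns, recombined, unrecombined and wild type from left to right), as log2 CPM minus the mean over the 12 libraries, with a prior count of 2. Apoe is high in all 4 recombined libraries, Idi1 and Scd1 are highest in unrecombined 4, and most other rows differ as much within a group as between groups.

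Of the SREBP control genes, Srebf2, which encodes SREBP-2, came nearest to the threshold. It had 65.3, 70.4, 81.6 and 87.3 CPM in recombined libraries 1 to 4, 64.0, 57.4, 65.7 and 55.3 CPM in unrecombined libraries 1 to 4, and 54.2, 44.5, 56.4 and 59.0 CPM in wild type libraries 1 to 4. Every recombined library lay above every wild type library, while recombined 1 lay just under the highest unrecombined one. The mean was 76.1 ± 10.1 CPM in recombined and 53.5 ± 6.31 CPM in wild type libraries (SD, n = 4 each), a log2 fold change of 0.51 ± 0.151 that did not pass in edgeR (adjusted p = 0.0617). It passed with DESeq2 (adjusted p = 0.0196) and without recombined 1 (adjusted p = 0.0389), and over all alternatives the adjusted p lay between 0.0196 and 0.728. Over unrecombined cells the difference was 0.33 ± 0.151 (adjusted p = 0.267).

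Srebf1, which encodes SREBP-1, had 24.0 to 43.3 CPM in recombined, 16.8 to 24.0 in unrecombined and 21.8 to 30.9 in wild type libraries. Its widest difference was between recombined and unrecombined cells, at 0.63 ± 0.227 on the log2 scale (adjusted p = 0.143 in edgeR). Scap, the escort of SREBP, had 44.8 and 42.0 CPM in recombined 3 and 4, 18.5 and 21.1 CPM in recombined 1 and 2, 18.7 to 32.4 in unrecombined and 25.8 to 32.3 in wild type libraries. The recombined group thus lay on both sides of wild type, and the difference was 0.13 ± 0.287. Insig1, the retention factor that SREBP itself turns on, had 8.66 CPM in recombined 4 and 44.7 CPM in unrecombined 2 as its extremes and differed by 0.31 ± 0.420 in recombined over wild type cells. Insig2, its relative, lay between 22.5 and 42.0 CPM in all libraries and differed by -0.18 ± 0.215.

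Among the fatty acid genes, Fasn, the fatty acid synthase, had 55.6, 39.6, 65.2 and 41.9 CPM in recombined libraries 1 to 4, 37.2, 24.3, 36.9 and 50.9 CPM in unrecombined libraries 1 to 4, and 33.6, 37.9, 23.6 and 40.5 CPM in wild type libraries 1 to 4. The groups overlapped, with recombined 2 under the highest wild type library. Recombined over wild type cells gave a log2 fold change of 0.58 ± 0.250 (adjusted p = 0.208). Acaca, the carboxylase that makes malonyl-CoA, lay between 13.2 and 34.1 CPM and differed by 0.16 ± 0.262.

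The desaturase Scd1, which makes monounsaturated fatty acids, had 188, 84.0, 162 and 149 CPM in recombined libraries 1 to 4, 158, 102, 250 and 922 CPM in unrecombined libraries 1 to 4, and 273, 109, 260 and 232 CPM in wild type libraries 1 to 4. Unrecombined 4 stood far above the rest, and the lowest library of each group was number 2, the one with the most salivary gland transcripts; the part of those transcripts was not tested. The log2 fold change was -0.59 ± 0.582 in recombined over wild type cells (adjusted p = 0.63) and -1.30 ± 0.589 in recombined over unrecombined cells (adjusted p = 0.27). Without unrecombined 4 the second was -0.22, and the difference of unrecombined over wild type cells was -0.36, against 0.71 with it. Scd2, a second desaturase, ranged from 9.26 CPM in recombined 3 to 115 CPM in unrecombined 4 and differed by -0.06 ± 0.642 in recombined over wild type cells.

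Sterols taken up in lipoproteins leave the lysosome through Npc2 and then Npc1. Npc1, counted with 3110002H16Rik, had 125, 158, 268 and 163 CPM in recombined libraries 1 to 4, 107, 102, 154 and 128 CPM in unrecombined libraries 1 to 4, and 109, 106, 113 and 133 CPM in wild type libraries 1 to 4. Recombined 3 was the highest and recombined 1 lay among the other groups. The log2 fold change over wild type was 0.63 ± 0.216 (adjusted p = 0.106 in edgeR), and it passed without recombined 1 (0.77, adjusted p = 0.0372) and with the replicate number as a block (0.58, adjusted p = 0.0486), with adjusted p between 0.0372 and 0.67 over all alternatives. Npc2 had 31.7 to 44.5 CPM in recombined, 33.8 to 54.5 in unrecombined and 41.9 to 57.7 in wild type libraries, with a log2 fold change of recombined over wild type cells of -0.44 ± 0.188 (adjusted p = 0.205). The values of these partners thus leaned in opposite directions, and neither passed in the fit without a block. Stard4, a soluble sterol carrier of the cytosol, lay between 1.72 and 4.81 CPM and differed by 0.15 ± 0.467.

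Apoe, the apolipoprotein that carries lipids out of cells and binds lipoprotein receptors, was the 1 member that rose. It had 69.6, 140, 117 and 165 CPM in recombined libraries 1 to 4, 26.6, 51.4, 28.5 and 45.6 CPM in unrecombined libraries 1 to 4, and 28.2, 34.4, 38.2 and 31.3 CPM in wild type libraries 1 to 4. All recombined libraries lay above all the others, and unrecombined overlapped wild type. The mean was 123 ± 40.7 CPM in recombined, 38.0 ± 12.3 in unrecombined and 33.0 ± 4.28 in wild type libraries (SD, n = 4 each). Recombined over unrecombined cells gave a log2 fold change of 1.70 ± 0.273 (adjusted p = 0.002), a 3.24-fold difference, and recombined over wild type cells 1.90 ± 0.275 (adjusted p = 0.00118). Within the libraries of the lower and of the higher submitters' library numbers, taken alone, the fold change over wild type was 1.65 (adjusted p = 0.111) and 2.19 (adjusted p = 0.197), and over unrecombined cells 1.45 (adjusted p = 0.247) and 1.93 (adjusted p = 0.0902). The direction held in each, and none of these passed, with at most 3 libraries in a group. The higher range holds 1 wild type library, which is assumed to vary like the other groups. Over all alternatives the adjusted p lay between 5.97e-09 and 0.197 over wild type and between 2.79e-07 and 0.247 over unrecombined cells.

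The other efflux genes did not follow Apoe. Abca1, the transporter that loads cholesterol onto lipid-poor apolipoproteins, had 92.5 to 168 CPM in recombined, 73.9 to 143 in unrecombined and 97.5 to 139 in wild type libraries, and differed by 0.09 ± 0.228 in recombined over wild type cells (adjusted p = 0.873 in edgeR). Abcg1, which exports cholesterol to high-density lipoprotein, had 28.1 CPM in recombined 3 and 8.09 to 10.7 CPM in the other recombined libraries, 13.6 to 36.1 in unrecombined and 13.3 to 31.6 in wild type libraries. Its fold change over wild type was -0.73 ± 0.433 (adjusted p = 0.371). Differences between genes were not tested. The 250 bases before the upstream RefSeq start of Apoe (GRCm38.p6, minus strand, chr7:19699189-19699438) hold none of the 3 motifs searched, and are shown because Apoe is the member that passed.
Apoe: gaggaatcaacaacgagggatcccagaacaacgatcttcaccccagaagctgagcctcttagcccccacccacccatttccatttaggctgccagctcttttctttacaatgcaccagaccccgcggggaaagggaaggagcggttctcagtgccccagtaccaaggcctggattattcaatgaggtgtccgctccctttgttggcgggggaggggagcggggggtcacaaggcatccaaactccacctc

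**Figure D3:**
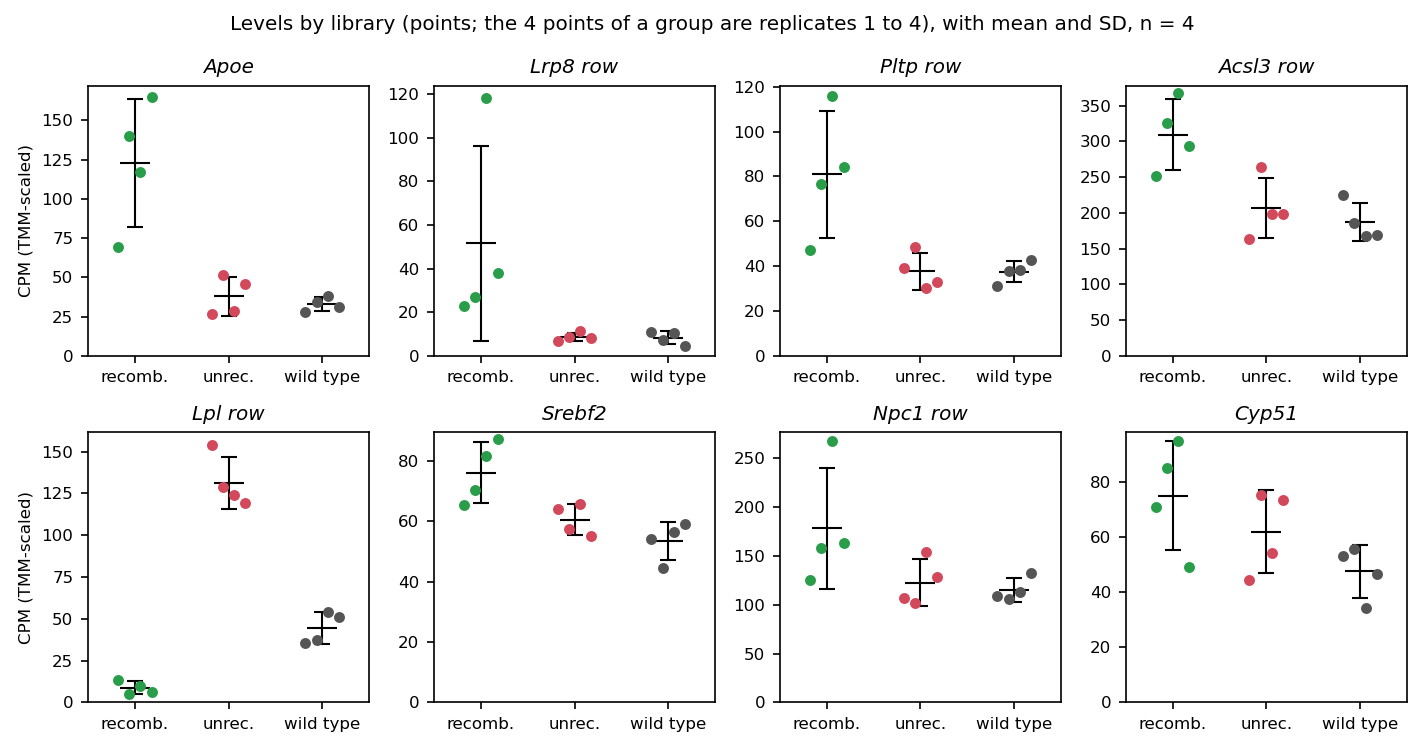
CPM (vertical axis, linear from 0) in recombined, unrecombined and wild type libraries from left to right. Apoe and the rows of Lrp8, Pltp and Acsl3 rose over wild type. Lpl fell, and Srebf2, Npc1 and Cyp51 did not pass. Points are libraries, bars the mean and SD (n = 4 each), and a title ending in row marks a count shared with other symbols. For Lpl, recombined libraries lie at 4.98 to 13.6 CPM, below both other groups.

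Other genes of these pathways came from lists of 79 genes, of which 76 were found. Of 17 genes of uptake, storage and esterification, 1 rose and 1 fell in recombined over wild type cells, with a median of 0.19, where 4.17% of all loci rose and 2.38% fell. Of 10 tested genes of LXR signalling and efflux 1 rose (median 0.47), namely the row that Pltp shares with other genes. Of 25 other genes of fatty acid and glyceride synthesis 1 rose (median 0.22). None passed among 8 other cholesterol synthesis genes (median -0.01), 9 other genes of SREBP processing (median -0.03) and 6 oxysterol enzymes (median 0.43). Over unrecombined cells 1 rose and 1 fell in the first list and 1 rose in the second, and none in the others. In unrecombined over wild type cells none passed in edgeR in any list. The 8 other cholesterol synthesis genes were all above 0 in that comparison (median 0.70) and all below 0 in recombined over unrecombined cells (median -0.37), a pair of comparisons that share the unrecombined libraries. The part of unrecombined 4 in these medians was not tested.

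Lrp8, a receptor for lipoproteins that carry apolipoprotein E, was counted with AK076555. It had 23.0, 27.1, 118 and 38.0 CPM in recombined libraries 1 to 4, 6.95, 8.63, 11.4 and 8.15 CPM in unrecombined libraries 1 to 4, and 10.8, 7.20, 10.7 and 4.66 CPM in wild type libraries 1 to 4. The recombined libraries did not overlap the others, and recombined 3 was the highest. It rose by 2.62 ± 0.482 on the log2 scale over wild type (adjusted p = 0.00521) and by 2.55 ± 0.480 over unrecombined cells (adjusted p = 0.00582). Without recombined 3 the first was 1.83 (adjusted p = 0.00716), and its adjusted p lay between 6.44e-07 and 0.174 over all alternatives.

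Pltp, the phospholipid transfer protein of lipoproteins, shared its row with Ctsa and Neurl2, so the value cannot be read as Pltp alone. The row had 47.0, 76.7, 116 and 84.4 CPM in recombined libraries 1 to 4, 39.4, 48.6, 30.2 and 32.9 CPM in unrecombined libraries 1 to 4, and 31.2, 37.9, 38.4 and 42.9 CPM in wild type libraries 1 to 4. Recombined 1 lay under the highest unrecombined library, and all recombined libraries lay above wild type. It rose by 1.11 ± 0.246 over wild type (adjusted p = 0.0155) and by 1.10 ± 0.246 over unrecombined cells (adjusted p = 0.017). With the replicate number as a block, the second was 1.05 with an adjusted p of 0.0503, and without recombined 3 and 4 neither passed (0.72 each, adjusted p = 0.197 and 0.223). Over all alternatives the adjusted p lay between 0.000727 and 0.386 over wild type and between 0.000904 and 0.744 over unrecombined cells. Acsl3, which activates long-chain fatty acids and is counted with Utp14b, had 251 to 367 CPM in recombined, 163 to 264 in unrecombined and 168 to 225 in wild type libraries. It rose by 0.73 ± 0.173 over wild type (adjusted p = 0.0223), a call lost when any one of 5 libraries was left out, namely recombined 2 and 3 and wild type 2, 3 and 4 (0.64 to 0.72, adjusted p from 0.0515 to 0.081). Over unrecombined cells it differed by 0.58 ± 0.173 (adjusted p = 0.0707), and with the replicate block by 0.59 (adjusted p = 0.0234). Over all alternatives the adjusted p lay between 0.00269 and 0.453 in the first of these and between 0.0234 and 0.78 in the second.

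Lpl, the lipase that frees fatty acids from circulating lipoproteins, is counted with AK170106 and fell. It had 13.6, 4.98, 10.1 and 6.06 CPM in recombined libraries 1 to 4, 154, 129, 124 and 119 CPM in unrecombined libraries 1 to 4, and 35.3, 37.3, 54.3 and 50.9 CPM in wild type libraries 1 to 4. The 3 groups did not overlap. The log2 fold change was -2.35 ± 0.285 over wild type (adjusted p = 0.000324) and -3.92 ± 0.304 over unrecombined cells (adjusted p = 6.04e-06). In unrecombined over wild type cells it was 1.56 ± 0.276, which did not pass in edgeR (adjusted p = 0.128) and passed with DESeq2 (0.000103), limma-voom (0.0186) and with only those groups in the fit (0.0275). Over all alternatives the adjusted p of this difference lay between 0.000103 and 1. The fall over wild type had adjusted p between 1.24e-13 and 0.0897, and was not called within either range of library numbers (0.0728 and 0.0897), and the fall over unrecombined cells between 7.25e-39 and 0.0185.

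Markers of several cell types moved with these genes. The 10 fibroblast markers summed to 207 to 573 CPM in recombined, 5145 to 7290 in unrecombined and 1408 to 3411 in wild type libraries, the same order of groups as Lpl. All 10 fell in recombined over wild type cells, Col1a1 with a log2 fold change of -4.64 (adjusted p = 0.000101). The 10 basal and myoepithelial markers summed to 1851 to 7827 CPM in recombined, 490 to 1132 in unrecombined and 863 to 1054 in wild type libraries, and 9 of them rose over wild type. Recombined 1 was the lowest recombined library and recombined 4 the highest both for this sum and for Apoe. Krt5, Krt14 and Trp63 rose by 3.34, 2.86 and 3.25 over wild type (adjusted p 0.009, 0.00259 and 0.00139). The 9 hormone-sensing luminal markers summed to 671 to 1894 CPM in recombined, 2780 to 4596 in unrecombined and 3186 to 6190 in wild type libraries, with 8 lower over wild type, among them Esr1 at -1.60 and Prlr at -2.04 (adjusted p = 0.00262 and 0.00154). Luminal progenitor markers summed to 1247 to 3473, 2222 to 4029 and 1898 to 2903 CPM in recombined, unrecombined and wild type libraries, and Elf5 did not pass. The part of the cell types in the lipid genes was not tested.

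Adipocytes and macrophages are other cell types known for lipid genes. Of 11 adipocyte markers 5 had enough counts to test, and 0 of them passed over wild type. The list summed to 53.9 to 147 CPM in recombined, 82.6 to 163 in unrecombined and 37.6 to 109 in wild type libraries. Most of the sum was Fabp4, which endothelial cells also express, at 22.5 to 109, 50.1 to 123 and 12.8 to 67.3 CPM in the same order of groups, and Lipe, whose row also holds 4732471J01Rik, at 13.7 to 35.3 CPM over all libraries. Pparg had 0.116 to 7.74 CPM. The markers Adipoq, Plin1, Cidec, Lep, Retn and Cfd were at or near 0, with at most 0.503 CPM in any library. The 11 macrophage markers, of a cell type rich in Apoe, summed to 10.3 to 20.8 CPM in recombined, 10.1 to 24.8 in unrecombined and 22.1 to 53.9 in wild type libraries. Of the 7 tested in recombined over wild type cells, 6 were below 0, and 2 of those passed in edgeR. These were Ptprc (log2 fold change -2.54, adjusted p = 0.00897) and Cd74 (-2.44, adjusted p = 0.0147). The 1 above 0 was Cd68 (0.71 ± 0.413, adjusted p = 0.364). Cd68 had 5.52 to 13.2 CPM in recombined, 3.40 to 12.5 in unrecombined and 4.50 to 7.72 in wild type libraries. Csf1r had 0.0412 to 5.59 CPM over all libraries. The part of these cells in the level of Apoe was not tested. The 9 endothelial markers summed to 47.2 to 115 CPM in recombined, 116 to 207 in unrecombined and 98.4 to 154 in wild type libraries, and Pecam1 had a log2 fold change of -1.17 over wild type (adjusted p = 0.0519).

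Unrecombined 4 stood apart in a subset of lipid genes. It was the highest of the 12 libraries in 7 of the 30 genes, as was recombined 3, against 0 to 5 for the other libraries. Recombined 3 was also the lowest in 7 genes, and unrecombined 4 in 1. No such count was made over all loci, so a wider spread of these libraries cannot be told apart. Recombined 3 had the lowest total count and the fewest loci with counts, and the part of this in its extreme values was not tested. Of pathway genes outside the naming rule and chosen after their values were seen, Idi2, the second isopentenyl diphosphate isomerase, had 89.7 CPM in unrecombined 4 and 66.0 in recombined 4, and at most 0.749 CPM in any other library. Soat1, which esterifies cholesterol for storage, had 131 CPM in unrecombined 4 and 14.6 to 50.8 in the others. Idi1 and Hmgcs1 were likewise highest in unrecombined 4 and next in recombined 4.

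Markers of sebaceous gland and epidermis, from lists made after these values were seen, varied too, and a few were highest in the same libraries. Krt79, a keratin of the sebaceous duct, had 25.8 CPM in unrecombined 4, 15.3 in recombined 4 and at most 2.86 in the others. Awat2, a wax ester synthase of sebaceous glands, had 11.0 and 2.06 CPM there and at most 0.926 elsewhere. Others were not high in both, and in recombined 4 Fa2h had 0.165 CPM and Mgst1 37.4 CPM. The 11 sebaceous markers summed to 288 CPM in unrecombined 4, 197 in recombined 4 and 159 to 258 in the others, and the 10 epidermal markers to 65.0, 34.3 and 5.73 to 25.1 CPM. Most of the sebaceous sum was the Far2 row, which also holds 4732416N19Rik, Ergic2 and Tmtc1 (109 to 169 CPM over all libraries). Mgst1 added 30.2 to 101 CPM, so the sum says little about the other sebaceous markers. The epidermal sums of the pair rested on different genes. Spink5 had 40.3 CPM in unrecombined 4, 3.17 in recombined 4 and 19.0 in recombined 1. Dsg1a had 17.6 CPM in recombined 4 and 1.94 in unrecombined 4. It had 2.06 to 17.6 CPM over the recombined libraries and 0 in wild type libraries. The part of sebaceous and epidermal cells in the levels of Idi1, Hmgcs1 and Scd1 was not tested. Without this pair of libraries Apoe had log2 fold changes of 1.72 over wild type (adjusted p = 0.00579) and 1.62 over unrecombined cells (adjusted p = 0.0138).

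**Figure D4:**
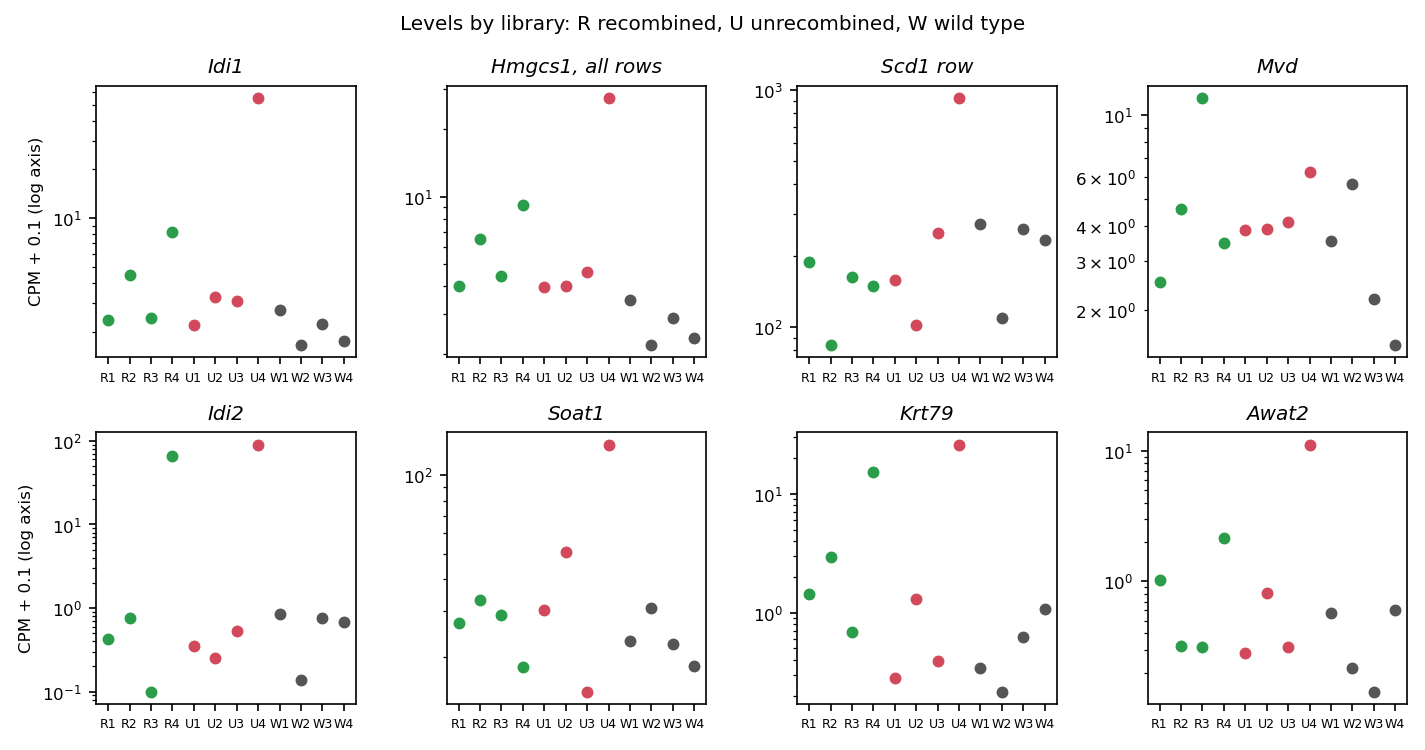
CPM plus 0.1 (vertical axis, log scale, each panel with its own range) of Idi1, Hmgcs1 (all rows summed), Scd1, Mvd, Idi2, Soat1, Krt79 and Awat2 in each library (horizontal axis, R recombined, U unrecombined, W wild type, replicates 1 to 4). Unrecombined 4 is the highest library in every panel but that of Mvd, where recombined 3 is, and recombined 4 is second for Idi1, Hmgcs1, Idi2, Krt79 and Awat2.

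Spread between replicates limited what could be told apart. Over the 30 genes the median coefficient of variation (SD over mean, in CPM) was 36.6% in recombined, 29.3% in unrecombined and 22.2% in wild type libraries. The highest library exceeded the lowest by a median of 2.79-fold, and by under 3-fold in 16 genes. In recombined over wild type cells the log2 fold changes of the 30 genes had a median SE of 0.304, and those of all loci 0.370.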

How the data were processed

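RNA of 12 libraries was analysed. The authors deposited raw read counts per gene row; per the submitters' processing notes the reads went through STAR and HTSeq 0.3.1 on build mm9. Options, strand and annotation are not given in the sources used here. Counts of 20114 rows of 1 locus were used, and 16521 rows naming several loci were used only for Hmgcs1. Totals were 19569509 to 34744267 per library, and no pair of libraries was identical.

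Counts were scaled by TMM and tested with the quasi-likelihood test of edgeR 4.0.16 (robust, R 4.3.3), 12 libraries in 1 fit, two-sided, adjusted by Benjamini-Hochberg over 14039 loci that passed the default filter, threshold 0.05. CPM are TMM-scaled. Log2 values in the heat map have a prior count of 2. Motifs were searched in the RefSeq promoter table of GRCm38.p6; its coordinates were not mixed with mm9. The fit was also run on simulated counts drawn independently for each library. These held no replicate pairing and no differences in cell types, so that run does not vouch for the fit under such conditions.

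The genes and lists were chosen with earlier results of these data known. Named were all 31 genes, pathway genes past the threshold and 10 fixed markers; any other gene is named as picked with its values known. Recombined and unrecombined libraries of the same replicate number deviated together (r = 0.239, 0.399, 0.244 and 0.298), so the numbers pair these groups; wild type libraries were not taken as paired, since of numbers 1 to 4 (r = -0.0314, 0.185, 0.109 and 0.125 with recombined and 0.00248, 0.312, 0.157 and 0.159 with unrecombined) number 1 did not exceed 0.1. The main fit held no replicate block, so its p values for recombined over unrecombined cells do not use the pairing by replicate number. Alternatives were other scalings, filters and tools (DESeq2 1.42.0, limma 3.58.1), a replicate block, libraries left out, all rows of a gene summed, and the ranges of submitters' library numbers, A and B.

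A gene of the pathway lists is not reported here.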

Additional observations from a re-analysis of the deposited data

Results flagged for a closer look

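Within groups of 4 libraries, a library was singled out where its gap to the nearest other library as a share of the range of the group, exceeded the 95% critical value of Dixon for 4 samples. This was the case in 8 of 102 groups tested, and chance gives about 1 in 20. Mvd had 6.15 CPM in unrecombined 4 and 3.77 to 4.03 CPM in the other unrecombined libraries. Idi1 had 54.8 CPM in unrecombined 4 and 2.10 to 3.17 in the others of its group. Tm7sf2 had 16.4 CPM in unrecombined 3, with 6.86 to 7.74 in the others, and 4.09 CPM in recombined 3, with 8.09 to 8.74 in the others. Insig2 had 42.0 CPM in wild type 4 and 30.3 to 31.7 in the other wild type libraries. Acaca had 34.1 CPM in wild type 1 and 22.8 to 24.1 in the others. Abcg1 had 28.1 CPM in recombined 3 and 8.09 to 10.7 in the other recombined libraries. Lrp8 had 118 CPM in recombined 3 and 23.0 to 38.0 in the others. Hmgcs1 was outside this check. Summed over all its rows, those naming several loci included, it reached 27.3 CPM in unrecombined 4, above the 2.09 to 3.37 CPM of wild type libraries.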

How the results depend on the processing

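For recombined over wild type cells, the number of the 31 genes that rose was 1 as reported. It was 2 with DESeq2 (Apoe and Srebf2), 2 with the replicate number as a block over 12 libraries (Apoe and Npc1, adjusted p = 0.0486), and 1 to 3 with single libraries left out (3 without recombined 1). Within the lower (A) and the higher (B) range of submitters' library numbers it was 0 and 0, with fewer samples. Over unrecombined cells it was 1 in every alternative except within ranges A and B, where it was 0 and 0. The block changed no other call among the 31 genes. None of the 31 genes was called lower in any comparison under any alternative run, and none was called higher in unrecombined over wild type cells. For Idi1, DESeq2 gave no p value in recombined over wild type cells.

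Over all loci, recombined against wild type cells gave 920 calls as reported, 1614 with DESeq2, 594 with only the 2 groups compared, 1194 with the replicate block, 248 without recombined 3 and 4, 576 without recombined 4 and unrecombined 4, 75 and 17 within ranges A and B, and 502 (without wild type 4) to 1217 (without recombined 1) with single libraries left out. Unrecombined against wild type cells gave 0 calls as reported, 76 with DESeq2, 25 with limma-voom, 74 with its library weights, 8 with only the 2 groups and 1 with the replicate block. Recombined against unrecombined cells gave 733 calls as reported, 1349 with DESeq2, 282 without recombined 3 and 4, 378 without recombined 4 and unrecombined 4, 106 and 115 within ranges A and B, and 449 (without unrecombined 1) to 1044 (without recombined 1) with single libraries left out. With the replicate block it gave 984 among the paired libraries alone. For the settings that kept all libraries the cause was not tested.

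Of 2890 values of single genes under an alternative, 30 lost and 13 gained a call, 0 reversed a call, and 178 changed sign where neither value passed. Leaving out recombined 4 with unrecombined 4, and using only the 7 libraries with under 1000 CPM of salivary gland transcripts, were chosen after seeing the data. In those 7 libraries Apoe differed by 2.15 over wild type (adjusted p = 0.00548) and by 1.96 over unrecombined cells (adjusted p = 0.0161). Genes under 5 CPM in all libraries were too shallow to show small differences.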
